A study of Mus musculus with 96 samples.

Results

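The growth hormone and insulin-like growth factor axis was followed through 10 genes chosen by name: the receptor gene Ghr, the signal transducer Stat5b, the feedback inhibitors Socs2 and Cish, the ligand Igf1, its serum partner Igfals, the binding proteins Igfbp1, Igfbp2 and Igfbp3, and the receptor Igf2r. They were measured by 14 of the 46116 probes of an Illumina mouse bead array, on which 17655 genes were named. Ghr, Igf1, Igfbp3 and Socs2 had 2 probes each, and the other 6 genes had 1. None of the 10 lies on chromosome 2, whose haplotypes the study examined: Socs2 and Igf1 lie on chromosome 10, Igfbp3, Igfbp1 and Stat5b on chromosome 11, Igfals and Igf2r on chromosome 17, Ghr on chromosome 15, Cish on chromosome 9 and Igfbp2 on chromosome 1.

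The arrays came from 48 F2 mice of an intercross between the M16i and MB2 lines, all 15 weeks old, each giving 1 gonadal fat array and 1 liver array. Per tissue there were 24 females and 24 males, and 12 mice in each of haplotype classes 1 to 4, with 6 of each sex per class. The labels do not say which parental segments a class carries, and they name no treatment. Within each tissue the arrays were scanned on 4 days of 12 arrays, with 3 arrays per class per day. Those 3 arrays were always of 1 sex, so a sex difference within a day also compares different classes.

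Growth hormone binds its receptor on hepatocytes and other cells, the receptor activates the kinase JAK2, and STAT5 proteins then raise transcription of Igf1 and Igfals and of the inhibitors Socs2 and Cish, which dampen the signal. Liver is the main source of circulating IGF1, which travels in a complex with IGFBP3 and the acid-labile subunit encoded by Igfals. In rodents the male pituitary releases growth hormone in pulses and the female pituitary more continuously, and many liver genes follow that pattern. Gonadal fat is itself a target of the hormone and a local source of IGF1.

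The upstream sequences of Igfals and Igf1 are shown because a STAT5 element in the mouse Igfals promoter is known to carry its growth hormone response, and because these 2 liver transcripts varied together across mice, as described later. The letters searched were TTCNNNGAA, a general STAT pattern that reads the same on both strands, in the 250 bases before each annotated start of RefSeq (build GRCm38.p6). Capitals mark the pattern, and all sequences are given 5′ to 3′ on the + strand.
Igfals, chr17:24877594-24877843: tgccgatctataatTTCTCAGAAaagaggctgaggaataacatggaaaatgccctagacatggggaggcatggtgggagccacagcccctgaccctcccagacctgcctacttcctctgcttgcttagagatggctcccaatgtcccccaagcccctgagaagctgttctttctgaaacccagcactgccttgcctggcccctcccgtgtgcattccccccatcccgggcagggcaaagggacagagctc
Igfals, chr17:24878163-24878191, before another annotated start: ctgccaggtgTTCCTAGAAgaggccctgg
Igf1, chr10:87860861-87861110: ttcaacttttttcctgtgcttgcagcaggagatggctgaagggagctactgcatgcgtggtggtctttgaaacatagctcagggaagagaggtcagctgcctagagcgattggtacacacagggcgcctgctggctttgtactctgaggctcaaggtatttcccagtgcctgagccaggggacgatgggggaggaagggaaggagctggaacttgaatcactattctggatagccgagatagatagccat
The first Igfals match, TTCTCAGAA, lies at positions 24877608 to 24877616, 236 bases before the start. The other, TTCCTAGAA, lies at positions 24878173 to 24878181, 58 bases before its start. Igfals held the pattern in 2 of its 3 windows and was the only 1 of the 9 members with a window to hold it; 2306 of all 32851 windows (7.02%) did. A match is a description of the letters and not a measured site, and the windows without it show only that these letters are not there.

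Signals above background were read per array from a detection p-value under 0.01. The probe of highest mean stands for each gene unless another is named. The arrays detected 6582 to 10002 probes in fat and 5519 to 9060 in liver. Igf1, Ghr and Igfals were detected on all 96 arrays, as was 1 Socs2 probe, and Igf2r on 48 of 48 fat arrays and 47 of 48 liver arrays. Cish was detected on 36 fat arrays and 29 liver arrays, Igfbp3 on 19 fat arrays and 12 liver arrays, and Igfbp2 on 5 fat arrays and all 48 liver arrays. Igfbp1 was detected on 0 fat arrays and 11 liver arrays, 1 fewer than the 12 required for testing. The single Stat5b probe, at 5.83 to 6.06 on the log2 scale, was not well above background on any array, nor was the second Socs2 probe, so the transducer was not measured here. Of the 10 genes, 8 were tested in liver and 7 in fat.

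**Figure D1:**
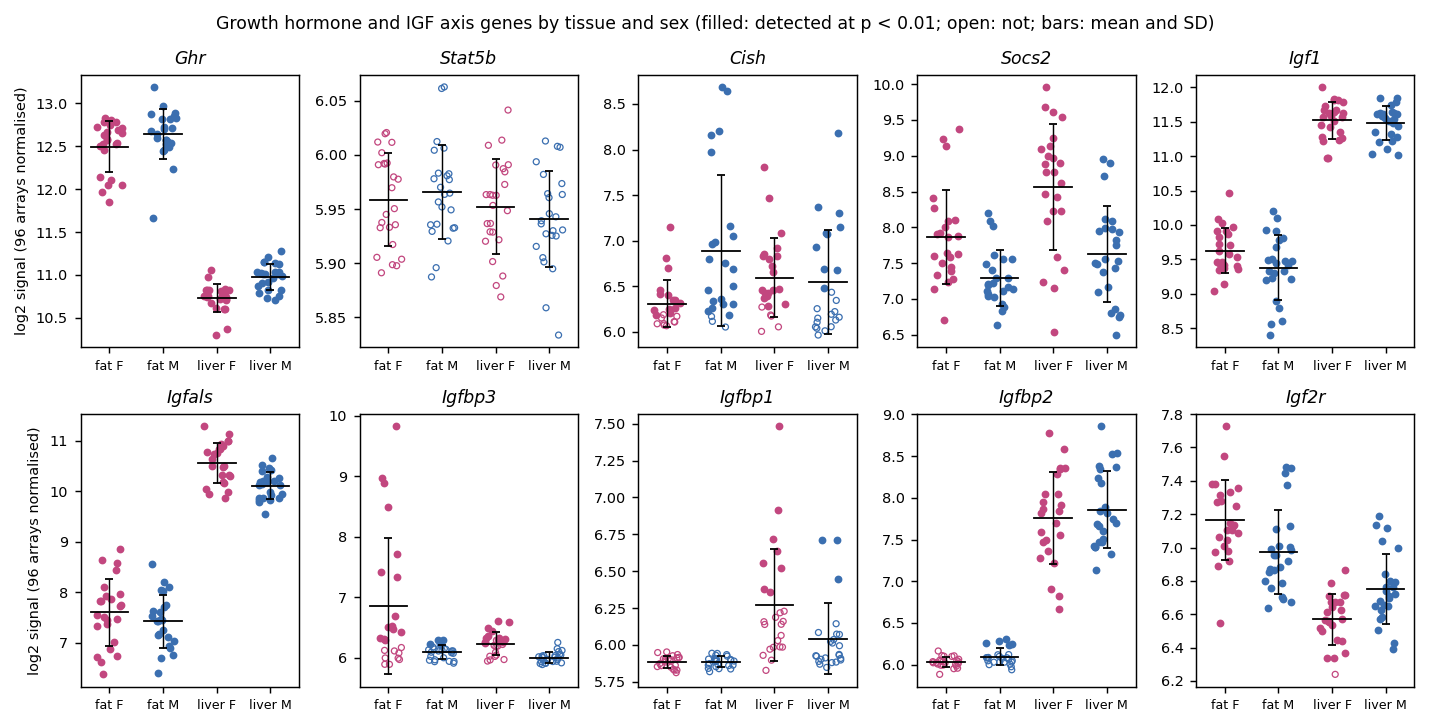
Log2 signal of each of the 10 genes on every array, normalised over all 96 arrays, by tissue and sex, with 24 arrays per column; filled points were detected at p under 0.01, and bars give the mean and SD. Ghr sits higher in fat, Igf1, Igfals and Igfbp2 sit higher in liver with no overlap between tissues, and Stat5b stays at background throughout.

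The comparison of gonadal fat with liver of the same mice asks where each component is transcribed. The receptor gene Ghr was higher in fat, and the ligand Igf1, its serum partner Igfals and the binding protein Igfbp2 were higher in liver, each with no overlap between the 48 fat and 48 liver arrays. How many of all 11718 tested probes likewise show no overlap was not counted, and 86.7% of them differed. On the log2 signal scale of all 96 arrays, Ghr ranged from 11.66 through a median of 12.61 to 13.19 in fat, against 10.30, 10.83 and 11.28 in liver. The mean levels were 12.57 ± 0.30 in fat and 10.86 ± 0.20 in liver (SD, n = 48 each), a 3.27-fold difference (limma, adjusted p = 2.95e-56), and the second Ghr probe gave 2.72-fold. On that second probe the tissues overlapped, with 41 of 48 fat arrays above every liver array. Igf1 had a lowest, median and highest level of 8.40, 9.47 and 10.47 in fat, against 10.97, 11.57 and 12.01 in liver. Its log2 difference, fat minus liver, was -2.0 (SE 0.07, adjusted p = 1.59e-47), a level 4.00-fold lower in fat. The second Igf1 probe differed less, by -0.73 (adjusted p = 6.41e-18), and overlapped, with 25 of 48 fat arrays below every liver array.

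Igfals, the acid-labile subunit gene, reached 6.38, 7.50 and 8.85 in fat (lowest, median, highest), against 9.56, 10.27 and 11.29 in liver. It was 7.04-fold lower in fat (log2 difference -2.81, SE 0.10, adjusted p = 7.37e-48). Every fat array detected Igfals. Of 8 hepatocyte markers a fat array detected between 0 and 5, with a median of 1. Serpina1a was detected on 20 of 48 fat arrays, Hnf4a on 13, Ahsg on 8, Ttr on 5 and Apoa1 on 3, while Alb, Fgb and Tat were detected on 0. The Alb and Fgb probes were poorly detected in liver itself, as given below, so their lack in fat says little. The part of hepatocyte transcripts in the Igfals level of fat was not tested. Igfbp2, a binding protein made by hepatocytes, averaged 6.06 ± 0.09 in fat, where 43 of 48 arrays did not detect it, and 7.81 ± 0.51 in liver (SD, n = 48 each; adjusted p = 5.36e-41). Igfbp2 entered the test through the liver arrays, so its fold is a bound: set against the lowest signal among probes well above background on each fat array, or its own where higher, which averaged 6.23, it was at least 3.00-fold lower in fat.

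The remaining tested genes overlapped between the tissues. Igf2r, which clears IGF2 and carries lysosomal enzymes, averaged 7.07 ± 0.26 in fat and 6.66 ± 0.20 in liver (SD, n = 48 each), and fat exceeded the same animal's liver in 46 of 48 mice (log2 difference 0.41, SE 0.05, adjusted p = 9.58e-13). Socs2 averaged 7.58 ± 0.61 in fat and 8.10 ± 0.90 in liver, with fat above the animal's own liver in 13 of 48 mice (log2 difference -0.52, SE 0.13, adjusted p = 0.000182), and the authors' lumi values gave a smaller difference of -0.23. Igfbp3 was higher in fat by 0.35 (SE 0.12, adjusted p = 0.00483), but by 0.03 with the lumi values (adjusted p = 0.719). Cish averaged 6.60 ± 0.67 in fat and 6.57 ± 0.50 in liver, and the 95% interval of its difference, -0.20 to 0.26, spans 0 (adjusted p = 0.807).

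Of the 8 members tested, 7 differed between tissues, 3 higher in fat and 4 higher in liver. Among all 11718 probes tested 86.7% differed, 47.9% higher in fat and 38.8% higher in liver, so the members' share is near the background. Without Igfbp2 the count was 6 of 7. The members' median log2 difference was -0.24, or 0.03 without Igfbp2, against 0.04 over all probes. Among 21 tested genes of a wider axis list (other ligands, receptors, adaptors, binding proteins and their proteases), 18 differed, again near the background of 86.7%. By direction, 16 were higher in fat and 2 higher in liver, against 47.9% and 38.8% of all probes. Their median log2 difference was 0.48, against 0.04 over all probes. Of this list 21 genes were tested in fat but 16 in liver. Some thus entered through the fat arrays, where the filter favoured a higher level, so this split and median support nothing further. In whole tissue, fewer cells of a type and less RNA per cell cannot be told apart. The labels held: adiponectin (Adipoq) was detected on 48 fat arrays and 1 liver array, and Apoa1 on 3 fat arrays and all 48 liver arrays. In liver itself the Alb probe was detected on 18 arrays and the Fgb probe on 0.

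Sex differences in liver are the readout most often tied to the growth hormone pattern. In female livers the inhibitor Socs2 and the serum partner Igfals were higher than in male livers, Igfbp3 was detected in some female livers and in no male liver, and the receptor gene Ghr was lower, while the difference of Igf1 itself was near 0. Levels here are log2 signals normalised within liver. Socs2 had a lowest, median and highest level of 6.45, 8.63 and 10.00 in females, against 6.41, 7.27 and 8.84 in males. The groups overlapped, but 9 of 24 females exceeded every male and 20 exceeded the male median. The fitted difference, female minus male, was 1.09 (SE 0.22), a 2.13-fold higher level in females with a 95% interval of 1.57 to 2.89 (limma, adjusted p = 0.00011).

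Igfals gave 9.90, 10.68 and 11.45 in females, against 9.56, 10.19 and 10.76 in males. There 11 females lay above every male and 6 males below every female. It was 1.35-fold higher in females (log2 difference 0.43, SE 0.10, adjusted p = 0.000566). Ghr ran the other way, at 10.37, 10.87 and 11.20 in females, against 10.82, 11.15 and 11.44 in males. Its difference of -0.25 (SE 0.05, adjusted p = 0.000229) left 6 females below every male and 6 males above every female. The second, dimmer Ghr probe gave -0.12 (adjusted p = 0.163) and did not pass the test, so the size of the Ghr difference depends on the probe.

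Igfbp3, which binds most circulating IGF1 and is made in liver mainly outside hepatocytes, was detected in 12 of 24 female livers and in 0 of 24 male livers. Its measured means were 6.24 ± 0.13 in females and 6.08 ± 0.07 in males (SD, n = 24 each; adjusted p = 2.85e-05). It entered the test through its 12 female arrays alone, so it had to differ, and its p-value supports nothing further. No fold is given for it, because the lowest signal among probes well above background averaged 6.32 on the male arrays, above the female mean. Igfbp1, which follows fasting and insulin in liver, was detected in 8 female livers and 3 male livers and was not tested. Its lowest, median and highest signals were 5.93, 6.20 and 7.21 in females, against 5.95, 6.02 and 6.57 in males.

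For the other liver genes the intervals bound the measured difference. Igf1 averaged 11.70 ± 0.28 in females and 11.65 ± 0.25 in males (SD, n = 24 each), with a difference of 0.02 and a 95% interval of -0.10 to 0.14 (adjusted p = 0.86). Cish averaged 6.50 ± 0.34 in females and 6.48 ± 0.45 in males, with an interval of -0.23 to 0.23 (adjusted p = 0.997). It was detected on 19 female and 10 male arrays, and the male floor averaged 6.56, above both means. Its interval is thus of signals partly at background and does not bound a difference in transcript level. Igfbp2 averaged 7.52 ± 0.56 in females and 7.61 ± 0.50 in males, with an interval of -0.36 to 0.27 (adjusted p = 0.868). Igf2r averaged 6.47 ± 0.11 in females and 6.60 ± 0.16 in males and missed the threshold at -0.09 (adjusted p = 0.0642), but passed it at -0.15 without scanning day 1 (adjusted p = 0.0284), at -0.13 with scanning day left out of the model and at -0.10 with day as a random block.

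In all, 4 of the 8 members tested in liver differed by sex, 3 higher in females and 1 higher in males. Over all 8504 liver probes 34% differed, 16.7% higher in females and 17.4% higher in males. Without Igfbp3 and Cish, each detected on fewer than 12 male arrays, the count was 3 of 6, 2 higher in females and 1 higher in males. The members' median difference was 0.01, or -0.01 without these 2, against 0.00 over all probes. The differences of Socs2, Igfals and Ghr kept their sign on each of the 4 scanning days, but their sizes varied. Socs2 differed by 0.52 on day 1, 1.65 on day 2, 1.87 on day 5 and 0.27 on day 6, and Igfals by 0.34, 0.32, 0.55 and 0.50 on the same days. Ghr differed by -0.30, -0.49, -0.12 and -0.14. With the lumi values the Socs2 difference was 0.63 and still passed.

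**Figure D2:**
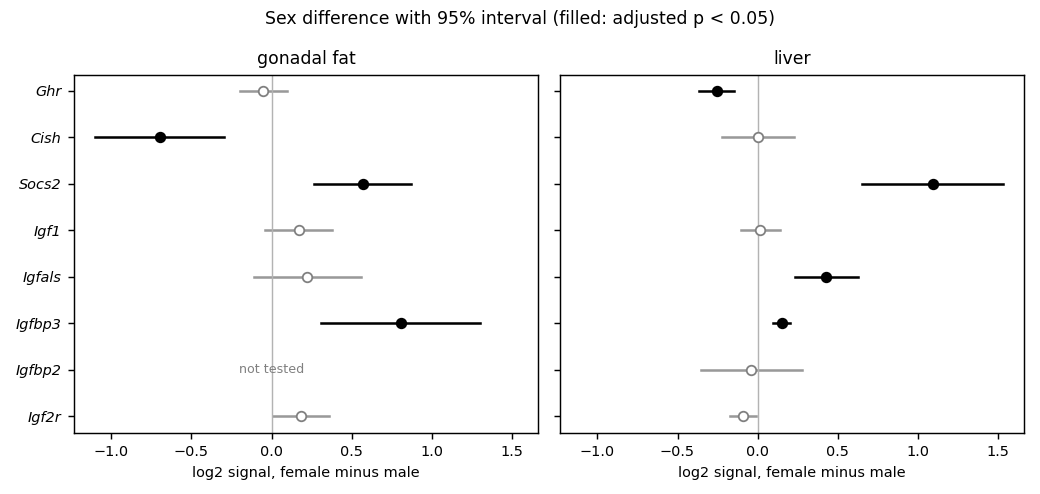
Log2 difference, female minus male, of each member with its 95% interval in gonadal fat and in liver; filled points passed an adjusted p of 0.05. Socs2 and Igfbp3 lie above 0 in both tissues, Cish lies below 0 in fat and at 0.00 in liver, and Igfals and Ghr passed in liver. Igfbp3 entered both tests through its female arrays.

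Genes known to follow the growth hormone pattern in mouse liver separated the sexes by much more. Of 18 tested, 9 were higher in females and 7 higher in males, against 16.7% and 17.4% of all liver probes. A1bg, a female-predominant serum glycoprotein gene, differed by 7.39, and the female-predominant cytochromes Cyp2b9 and Cyp2b13 by 4.79 and 4.40. The male-predominant steroid enzymes Hsd3b5, Cyp7b1 and Cyp2d9 differed by -5.82, -4.34 and -3.89. Several of these genes were already known to be sex-biased in these samples, so their direction is no independent evidence.

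Of 16 tested genes on the wider axis list, 4 were higher and 1 lower in female livers, a share close to the 34% of all liver probes. These were the protease gene Mmp14 at 0.37, Igfbp7 at 0.34, the adaptor Sh2b1 at 0.13, the phosphatase Ptpn6 at 0.24 and the kinase subunit Pik3r1 at -0.31. Of 13 genes that follow fasting, insulin or glucocorticoids, 8 were higher in females and 0 lower, with a median difference of 0.22, where 16.7% of all liver probes were higher in females. They included the glucocorticoid target Fkbp5 (0.36, adjusted p = 4.64e-06), the lipase inhibitor Angptl4 (0.79, adjusted p = 0.0114), the fasting hormone Fgf21 (0.22, adjusted p = 0.0121) and the kinase Pdk4 (0.31, adjusted p = 0.0143). Markers of other liver cells moved with sex as well: 4 of 6 tested Kupffer cell markers and 4 of 6 endothelial markers were higher in females, and 0 of 4 stellate cell markers differed. The summed Kupffer cell marker level ran over 9.81 to 11.79 in females, against 9.39 to 10.85 in males, and the endothelial one over 10.59 to 11.51 in females, against 10.54 to 11.57 in males. Among hepatocyte markers 2 of 6 were higher in females, Ahsg by 0.44 and Alb, whose probe was dim, by 0.07. The part of these cell markers in the sex differences of Socs2, Igfals, Igfbp3 and Ghr was not tested.

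In gonadal fat Socs2 was higher and Cish was lower in females than in males. The 2 feedback inhibitors, both known targets of STAT5, thus differed in opposite directions. Igfbp3 was detected on more female than male arrays. Socs2 had a lowest, median and highest level of 6.84, 7.99 and 9.40 in females, against 6.75, 7.42 and 8.40 in males. There 5 females exceeded every male and 22 exceeded the male median. It was 1.48-fold higher in females (log2 difference 0.57, SE 0.15, 95% interval of the fold 1.2 to 1.83, adjusted p = 0.00476), and the lumi values gave 0.34.

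Cish spread widely among males, at 5.98, 6.70 and 8.83, while females lay at 6.00, 6.23 and 7.37. It was detected in 15 female and 21 male fat arrays, and 6 of 24 males exceeded every female. The difference was -0.70 (SE 0.20, 95% interval -1.10 to -0.29, adjusted p = 0.00923), and -0.46 with the lumi values, which also passed. Igfbp3 showed the reverse pattern, reaching 5.79, 6.41 and 9.80 in females, against 5.81, 6.06 and 6.31 in males. It was detected in 15 female and 4 male arrays, and 14 of 24 females lay above every male and 2 below every male. The fitted difference was 0.81 (SE 0.25, adjusted p = 0.0142), with 20 of 24 male arrays at background. Set against the same floor on the male arrays, which averaged 6.21, the female mean of 6.89 was at least 1.60-fold higher. Some bright arrays raised that mean, as the female median was 6.41, so the bound does not describe a typical female. Igfbp3 entered the test mainly through its 15 female arrays. The second Igfbp3 probe was detected in 8 female and 0 male arrays and was too dim to be tested.

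The other members did not pass in fat. Igf1 averaged 9.63 ± 0.29 in females and 9.42 ± 0.41 in males (SD, n = 24 each), with a difference of 0.17 and an interval of -0.04 to 0.38 (adjusted p = 0.244). Igfals averaged 7.80 ± 0.68 in females and 7.63 ± 0.55 in males (adjusted p = 0.353), and Ghr 12.27 ± 0.29 in females and 12.41 ± 0.28 in males (adjusted p = 0.671). Igf2r averaged 7.37 ± 0.27 in females and 7.15 ± 0.29 in males; its difference of 0.18 (adjusted p = 0.117) passed at 0.22 with scanning day left out of the model (adjusted p = 0.0363).

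Of the 7 members tested in fat, 3 differed by sex, 2 higher in females and 1 higher in males, where 22.6% of all 10217 fat probes differed, 12.1% higher in females and 10.5% higher in males. Without Igfbp3 the count was 2 of 6, and the members' median difference was 0.18 with or without it, against 0.01 over all probes. Without the 12 arrays of scanning day 7 none of the 3 passed, although the size of the Socs2 difference moved little: Cish differed by -0.46 (adjusted p = 0.184), Socs2 by 0.52 (adjusted p = 0.0538) and Igfbp3 by 0.54 (adjusted p = 0.196). Cish also missed the threshold without day 3, at -0.80 (adjusted p = 0.0652), and Igfbp3 without day 8, at 0.87 (adjusted p = 0.0759). On days 3, 4, 7 and 8 the sexes differed by 0.54, 0.79, 0.68 and 0.23 for Socs2, by -0.41, -0.44, -1.02 and -0.92 for Cish and by 0.48, 0.82, 1.51 and 0.28 for Igfbp3, so that no sign turned. The Igfbp3 values are measured differences, with most male arrays at background.

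**Figure D3:**
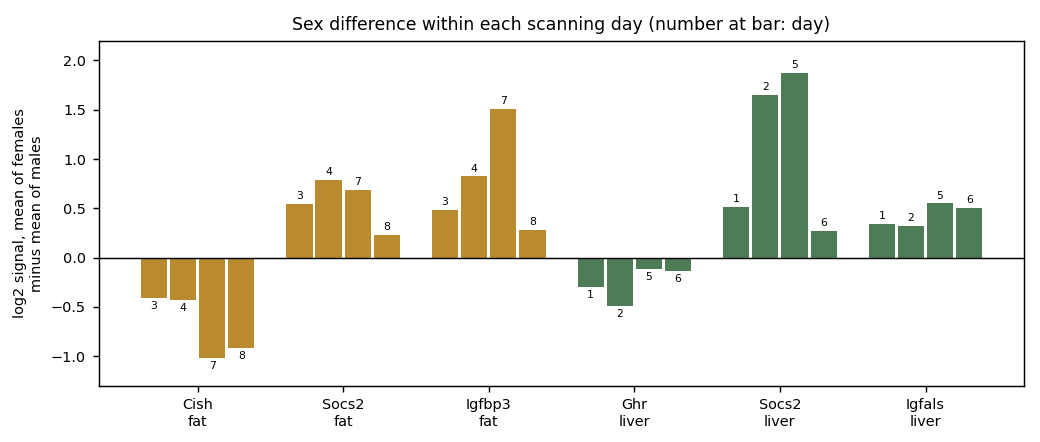
Log2 difference, mean of females minus mean of males, within each scanning day for the members that passed the sex test, except liver Igfbp3, which no male liver detected, with the day number at each bar. Cish in fat is below 0 on days 3, 4, 7 and 8, Ghr in liver is below 0 on days 1, 2, 5 and 6, and the other bars are above 0, with the lowest for fat Socs2 at 0.23 on day 8.

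Binding proteins and adaptors outside the 10 genes also differed in fat. Of 21 tested genes on the wider list, 8 were higher in females and 4 lower, with a median of 0.09, where 12.1% of all fat probes were higher and 10.5% lower in females. Igfbp5 (0.75), the protease genes Mmp14 (0.94) and Htra1 (0.35), and the insulin receptor substrate Irs1 (0.62) were higher in females, and the phosphatase Ptpn11 (-0.41) and the kinase Jak2 (-0.27) were lower. Among 11 fasting and insulin genes 1 was higher in females, Pdk4 at 0.58, and 4 were lower, including Fkbp5 at -0.90 and Pnpla3 at -1.03. Stromal markers moved with sex in the same samples: 6 of 6 tested were higher in females, Col1a1 by 1.10, and their summed level ran over 12.66 to 13.56 in females, against 12.47 to 13.10 in males. Of 7 adipocyte markers 1, Plin1, differed, by -0.48, and of 3 mesothelial markers 1, Wt1, by 0.91. The lists for ovary and uterus and for epididymis had 0 genes detected on enough fat arrays to be tested. Of 8 hepatocyte markers the 2 detected often enough to be tested, Serpina1a and Hnf4a, were both lower in females, by -0.30 and -0.47, and their summed level ran over 6.91 to 7.62 in females, against 6.96 to 9.30 in males. The part of these markers in the differences of Socs2, Cish and Igfbp3 was not tested. One fat array, a class 2 male, carried 4 of 5 epididymal transcripts, with Adam7 at 12.99 against at most 6.84 on the other fat arrays. Without it and the 2 other least correlated fat arrays, Cish differed by -0.76 and Socs2 by 0.55, and both passed. The measured Igfbp3 difference was then 0.78.

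Whether a sex difference was itself different between the tissues was tested as an interaction over all 96 arrays. Cish and Igf2r passed, and Socs2, higher in females in both tissues, did not. For Cish the female minus male difference in fat less that in liver was -0.63 (SE 0.23, adjusted p = 0.0341). In liver 19 female and 10 male arrays detected Cish, so its liver values lie partly at background. For Igf2r it was 0.29 (SE 0.09, adjusted p = 0.0149), with female means above male means in fat and below them in liver. The interaction of Socs2 was -0.43 (adjusted p = 0.237), of Igfbp3 0.50 (adjusted p = 0.113), of Ghr 0.18 (adjusted p = 0.134) and of Igf1 0.18 (adjusted p = 0.315). For Igfals, whose sex test passed in liver alone, it was -0.15 (adjusted p = 0.59). So 2 of 8 members passed, against 27.6% of all probes. The signed value, female minus male, was higher in fat for Igf2r and for 14.5% of probes. It was higher in liver for Cish, whose sex test passed in fat alone, and for 13.1% of probes. Testing every probe without the detection filter moved Cish to an adjusted p of 0.0974.

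The haplotype classes of chromosome 2 are the study's own question, and no member differed among them past the threshold. In liver 0 of 8 members passed by limma, against 0.317% of all probes. There 1 member had an unadjusted p under 0.05, as did 455 of all 8504 probes. In fat 0 of 7 passed, against 0.401%, and 2 had an unadjusted p under 0.05, as did 1323 of all 10217 probes. Liver Socs2 came closest in that tissue (adjusted p = 0.676). Its levels averaged 7.80 ± 0.97, 8.54 ± 0.84, 7.71 ± 0.99 and 7.60 ± 0.86 in classes 1, 2, 3 and 4 (SD, n = 12 each). Class 2 ran over 7.67 to 10.00, while class 1 ran over 6.68 to 9.62, class 3 over 6.45 to 8.90 and class 4 over 6.41 to 9.06, so the classes overlapped.

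In fat, Igfals averaged 7.70 ± 0.55, 7.31 ± 0.58, 7.78 ± 0.56 and 8.07 ± 0.60 in classes 1 to 4 (adjusted p = 0.251). Fat Ghr had means adjusted for sex and day of 12.42, 12.15, 12.39 and 12.42 (adjusted p = 0.287), but its second probe gave an adjusted p = 0.917. The sex difference of a member did not depend on class past the threshold in either tissue. There 0% of liver probes and 0% of fat probes passed, with 573 and 685 probes at an unadjusted p under 0.05. Because the 3 arrays of a class on a day were of 1 sex, scanning day and the dependence of sex on class overlap in part. With day left out of the model 316 liver probes and 3 fat probes passed. In turn, 24 liver probes passed without day 5 and 54 fat probes without day 7. No member was among any of these. In the main fit the smallest member value was that of fat Igf1 (adjusted p = 0.693), and its lowest over the alternatives was 0.110. For a class effect that differs between tissues, 0 of 8 members passed against 0.128% of all probes, the closest being Igfals (adjusted p = 0.586).

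**Figure D4:**
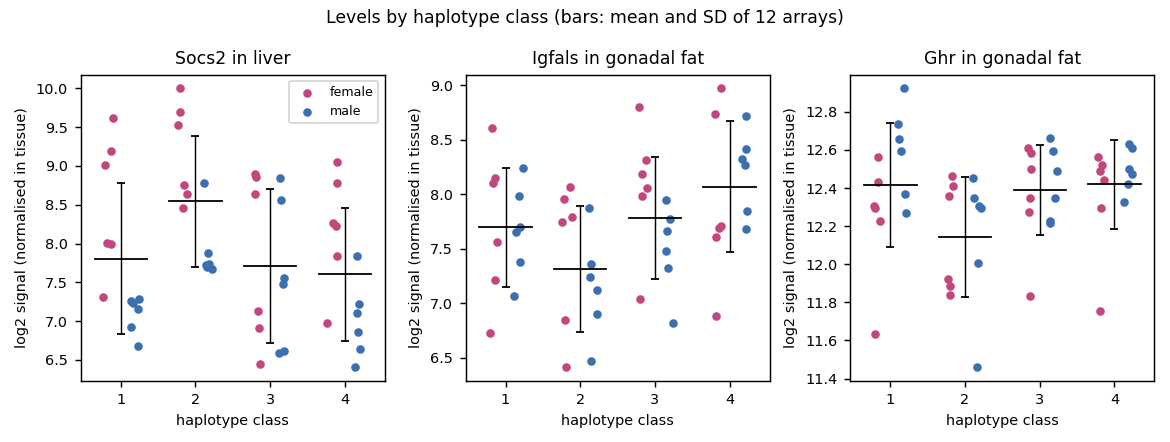
Log2 signal, normalised within tissue, of the members with the lowest class p-values, by haplotype class, with females and males in different colours; bars give the mean and SD of 12 arrays. Liver Socs2 averages 8.54 in class 2 and 7.60 to 7.80 in the other classes, with overlapping points, and no class test passed.

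Members were then compared across the 48 mice after sex, class and scanning day were removed from each value. Of 35 pairs, 28 within liver and 7 of a gene in fat with the same gene in liver, 6 passed a permutation test with adjustment over all 35. All 6 correlations were positive. How often pairs of other genes correlate as strongly, within liver or between the tissues, was not counted. The 6 pairs thus do not set these members apart from other genes. Within liver, Igf1 correlated more strongly with some genes that are not members, such as Tprkb (r = 0.694), than with Igfals (r = 0.514). Igf2r in fat followed Igf2r in liver with r = 0.595 and rho = 0.515 (permutation p = 1e-05, the smallest 100000 resamples can give, adjusted p = 0.00035). It held at 0.460 without the 2 farthest mice, at 0.564 in females and 0.644 in males, and was positive on each of the 4 liver scanning days. Cish in fat followed Cish in liver with r = 0.537 and rho = 0.521 (permutation p = 0.00017, adjusted p = 0.00245), falling to 0.398 without the 2 farthest mice. It was 0.363 in females and 0.603 in males and ran over -0.0885 to 0.696 within days. In liver 19 female and 10 male arrays detected Cish, and not every fat array did, so these values lie partly at background.

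Within liver, Igf1 followed Igfals, whose products circulate together, with r = 0.514 and rho = 0.485 (permutation p = 0.00021, adjusted p = 0.00245). That relation was 0.446 without the 2 farthest mice, 0.585 in females and 0.401 in males, and ran over 0.123 to 0.703 within days. The inhibitors Cish and Socs2 varied together with r = 0.505 and rho = 0.568 (permutation p = 0.00032, adjusted p = 0.0028). Their correlation was 0.496 without the 2 farthest mice, 0.761 in females and 0.321 in males, and ran over -0.0454 to 0.785 within days. Here too the Cish values lie partly at background. Ghr followed Igfals with r = 0.456 and rho = 0.471 (permutation p = 0.00106, adjusted p = 0.00742), and missed the threshold without the least correlated arrays (r = 0.369, adjusted p = 0.066). Without the 2 farthest mice it was 0.517, and within days it ran over -0.054 to 0.721. Socs2 and Igfals gave r = 0.395 and rho = 0.329 (permutation p = 0.00548, adjusted p = 0.032) and 0.312 without the 2 farthest mice, with adjusted p = 0.102 by rank. Values of 1 array share its RNA, hybridisation and depth, which the liver pairs cannot set aside.

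**Figure D5:**
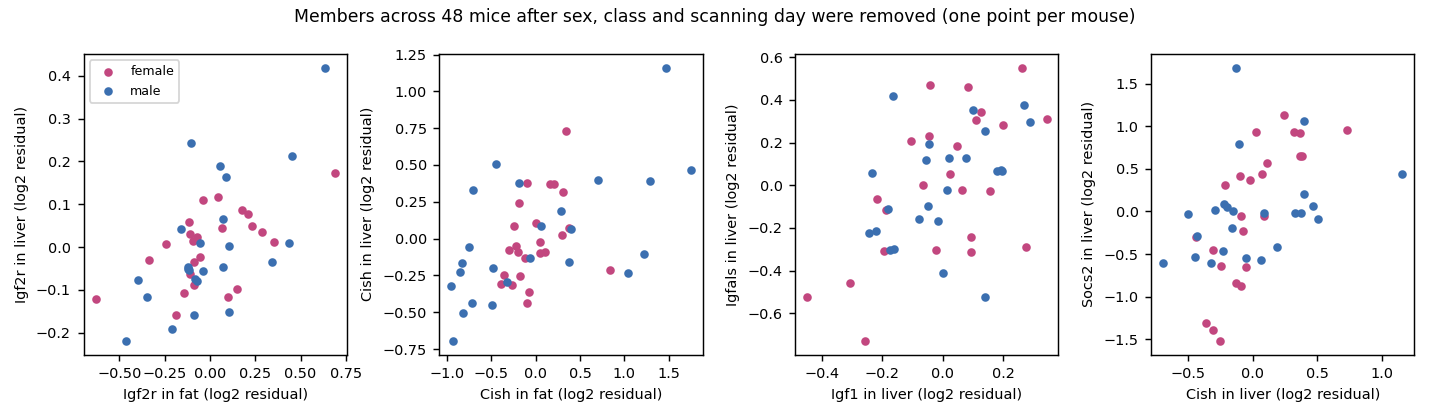
Residual log2 signal of member pairs across 48 mice, with sex, class and scanning day removed; each point is 1 mouse, females and males in different colours. Igf2r and Cish in fat rise with the same gene in liver (r = 0.595 and 0.537), as do Igf1 with Igfals (0.514) and Cish with Socs2 (0.505) within liver. Cish values lie partly at background in both tissues.

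The genes whose residuals were most like a member's, among 5826 genes in liver and 6870 in fat over 48 arrays, are given as a description. For liver Socs2 these were Agfg2, Ugcg, Tgm1, Cish and Slx1b, with r of 0.518, 0.517, 0.510, 0.505 and 0.501, so the other inhibitor was among them. For liver Igfals they were Nrep at 0.726, Nudt7 at 0.627, Nit2 at 0.625, Shroom1 at 0.620 and Cyp4f14 at 0.617. For liver Igf1 they were Tprkb at 0.694, Etfb at 0.686, Atp5b at 0.644, Cyp4f14 at 0.641 and Polr2d at 0.633, and Cyp4f14 stood on both lists. In fat the genes nearest Igf1 were Mrpl49 at 0.675, Myorg at 0.654, C1qtnf12 at 0.645, Oaz1 at 0.642 and Cd99l2 at 0.623. Liver Igfbp2 had weaker neighbours, Prom2 at 0.529, Rpl13a at 0.499, Fis1 at 0.492, Cct4 at 0.490 and Kyat1 at 0.487.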

How the data were processed

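Illumina bead array intensities and detection values were deposited by the authors for 96 arrays, not normalised, with no step before export stated. Beside each intensity the authors deposited a detection column, a p-value per the file headers whose values run as 1 minus it, and it was turned round before use. The authors also deposited log2 values made with lumi, per the submitters' processing notes, whose version is not given in the sources used here. Symbols came from the platform annotation: 29534 of 46116 probes have 1 symbol, 11 several and 16571 none.

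Signals were corrected and quantile normalised with neqc (limma 3.58.1 in R 4.3.3, offset 16), within tissue for sex and class and over all 96 arrays for tissue. Such normalization shares 1 distribution across arrays and compresses dim probes. Probes detected at p under 0.01 on at least 12 arrays entered the fit: 10217 in fat, 8504 in liver and 11718 over both. limma with a mean-variance trend was fitted on all of them, with class and scanning day as terms for sex, sex and day for class, and sex and class for tissue. Adjusted p-values are Benjamini-Hochberg over all probes of that fit, with a threshold of 0.05. The fit was tested on simulated data. Fat and liver of 1 mouse are paired by the label's animal number, but the main tissue fit did not use the pairing. Over all probes of that fit the mean correlation within mice was -0.026. After sex, class and day were removed, Igf2r gave r = 0.595 and Cish r = 0.537 between the tissues. All members are named; of the wider lists, up to 6 genes per comparison with the strongest statistic; and the 5 genes most like a member. The members and lists were chosen with earlier results of these data known. Likeness to Igfbp1 was not computed, since it was not tested. The number of arrays limits the precision.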

Additional observations from a re-analysis of the deposited data

Results flagged for a closer look

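In 120 groups of 6 arrays of 1 member, tissue, sex and class, 10 held an array far from the other 5, where chance gives about 1 group in 20. The receptor gene Ghr accounted for 4 of them. In fat, 1 class 1 female lay at 11.64 with the next female at 12.23, and 1 class 4 female lay at 11.76 with the next at 12.29. In liver, 1 class 3 female lay high at 11.20 with the next at 10.92, and 1 class 4 female lay low at 10.71 with the next at 10.93. Igf2r stood high in 1 class 2 male in each tissue, at 7.71 with the next at 7.13 in fat and at 6.94 with the next at 6.54 in liver. In liver, 1 class 2 male had Socs2 at 8.78 with the next at 7.88, and 1 class 3 female had Igf1 at 11.42 with the next at 11.91. Liver Igfbp3 stood low in 1 class 4 female, at 6.10 with the next at 6.24, and high in 1 class 4 male, at 6.26 with the next at 6.11.

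The sex differences of 2 members differed between the tissues by the interaction test: Cish at -0.63 (adjusted p = 0.0341) and Igf2r at 0.29 (adjusted p = 0.0149), each as the female minus male difference in fat less that in liver.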

How the results depend on the processing

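No result changed direction past the threshold. Leaving out each scanning day in turn gave 0 to 3 members differing by sex in fat, where the full data gave 3, and the count of 0 was without day 7, which leaves 36 arrays; 1967 fat probes in all still passed then. Over all probes the leave-one-out counts for sex were 970 to 1967 in fat, against 2314 with all days, and 1712 to 2425 in liver, against 2893. With no detection filter, 1 member passed the test of tissue by sex in place of 2, since more probes entered the adjustment. Over all alternatives the members differing by sex numbered 3 to 5 in liver and 0 to 4 in fat, those differing by tissue 6 to 8, and the pairs 4 to 6. With the mouse as a replicate block, 7 members differed by tissue, 2 by tissue and sex and 0 by tissue and class, the same counts as without it. With the lumi values 4305 probes were higher in fat and 6125 higher in liver, against 5612 and 4550 with neqc, and the median of all probes moved to -0.07, against 0.04. Dim probes limit Igfbp1, Igfbp3, Cish and Stat5b.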
